A study of Homo sapiens with 6 samples.

Results

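The 8 troponin genes, TNNT1, TNNT2, TNNT3, TNNI1, TNNI2, TNNI3, TNNC1 and TNNC2, were examined for open chromatin in RH30 cells with and without MyoD. Peaks of 6 ATAC-seq libraries were merged where they overlapped, and a region was assigned to a troponin gene when its highest summit lay in the gene body or within 25 kb of it. This gave 58 regions of 105569 in all, and 38 of the 58 were called in all 6 libraries, against 47885 of all regions. Because troponin genes lie close together, 13 regions fell in the windows of 2 genes, 9 of them between TNNT1 and TNNI3 and 4 between TNNT2 and TNNI1. ATAC-seq marks accessible DNA by the adapters that the Tn5 transposase inserts into it. RH30 is a human line of fusion-positive (alveolar) rhabdomyosarcoma, a tumor of the skeletal muscle lineage. The vector group comprised 3 libraries of cells that received Cas9 and a scramble guide, and the MyoD-deleted group 3 libraries of cells that received Cas9 and guides against MyoD, so that all of the cells carried Cas9. The labels call the libraries biological replicates but do not say whether they came from separate infections, a pool or a clone, and p-values then measure only the spread between these libraries. The labels and methods name RH30 cells, and the study's text names for these assays both RH30 cells and RH30 cells carrying an NF-κB inhibitor, the IκBα super repressor, and the lists of peaks do not settle which were used.

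Troponin is the calcium switch of striated muscle. Its C subunit binds calcium, its I subunit inhibits the interaction of actin with myosin, and its T subunit fastens the complex to tropomyosin on the thin filament. Troponin I and troponin T have separate isoforms for slow skeletal, fast skeletal and cardiac muscle. For troponin C, slow skeletal and cardiac muscle share an isoform. The genes for troponin I and troponin T lie near each other in pairs on chromosomes 1, 11 and 19, in part with other genes between them. MyoD is a transcription factor that binds E boxes, DNA of the form CANNTG, and in muscle differentiation the skeletal troponin genes are among the genes that myogenic factors switch on.

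The stretches of DNA below are 201 bases centred on the highest summit of a region, read on the strand of the gene from the hg38 reference, and capitals mark matches on either strand to the E boxes CAGCTG and CAGGTG, to the AP-1 site TGACTCA or its reverse TGAGTCA, and to the M-CAT element CATTCC. Regions are named by the nearest troponin 5′ end and the distance of the summit from it in kb, with upstream negative. The first 4 are the regions upstream of TNNI1, the slow skeletal troponin I gene, whose summits changed the most among the troponin regions. Of these, the region at −0.9 kb was shown because it lies nearest to the 5′ end, and the others were chosen after their values were seen.
TNNI1 −0.9 kb, chr1:201422563-201422763, minus strand: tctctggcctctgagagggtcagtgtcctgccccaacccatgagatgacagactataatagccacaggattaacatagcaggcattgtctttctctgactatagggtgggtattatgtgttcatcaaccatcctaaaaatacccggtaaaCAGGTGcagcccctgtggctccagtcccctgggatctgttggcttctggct
TNNI1 −2.5 kb, chr1:201424179-201424379, minus strand: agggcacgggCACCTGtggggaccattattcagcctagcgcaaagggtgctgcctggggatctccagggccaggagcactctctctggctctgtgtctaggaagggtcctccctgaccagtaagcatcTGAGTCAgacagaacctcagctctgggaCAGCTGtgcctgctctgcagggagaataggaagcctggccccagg
TNNI1 −4.9 kb, chr1:201426546-201426746, minus strand: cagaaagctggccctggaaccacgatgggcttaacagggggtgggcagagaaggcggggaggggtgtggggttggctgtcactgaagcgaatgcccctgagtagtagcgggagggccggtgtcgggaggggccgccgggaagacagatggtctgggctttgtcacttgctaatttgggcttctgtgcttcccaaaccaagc
TNNI1 −9.4 kb, chr1:201430990-201431190, minus strand: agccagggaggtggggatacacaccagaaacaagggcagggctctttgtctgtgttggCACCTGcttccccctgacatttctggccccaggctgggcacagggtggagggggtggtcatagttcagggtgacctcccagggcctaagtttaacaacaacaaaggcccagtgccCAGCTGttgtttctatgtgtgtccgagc

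The next 3 are regions within 1 kb of the 5′ end of TNNT1 (slow skeletal troponin T), TNNT2 (cardiac troponin T) and TNNI2 (fast skeletal troponin I), whose summits were also lower in MyoD-deleted libraries.
TNNT1 −0.2 kb, chr19:55149337-55149537, minus strand: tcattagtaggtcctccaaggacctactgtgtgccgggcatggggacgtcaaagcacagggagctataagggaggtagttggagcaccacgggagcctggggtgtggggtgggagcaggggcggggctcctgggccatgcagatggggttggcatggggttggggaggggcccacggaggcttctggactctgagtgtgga
TNNT2 +0.8 kb, chr1:201376740-201376940, minus strand: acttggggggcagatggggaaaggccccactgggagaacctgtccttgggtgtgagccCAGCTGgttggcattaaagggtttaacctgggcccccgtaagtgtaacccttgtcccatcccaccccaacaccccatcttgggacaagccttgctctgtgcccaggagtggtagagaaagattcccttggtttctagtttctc
TNNI2 −1.0 kb, chr11:1837880-1838080, plus strand: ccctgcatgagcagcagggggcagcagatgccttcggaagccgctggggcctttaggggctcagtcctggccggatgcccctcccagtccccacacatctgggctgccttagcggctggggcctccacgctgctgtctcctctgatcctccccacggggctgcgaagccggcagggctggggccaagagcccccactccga

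The following pair shows the region that was called in all vector libraries and no MyoD-deleted library, upstream of TNNI2, and the region with the reverse pattern, between TNNT2 and TNNI1.
TNNI2 −19.6 kb, chr11:1819231-1819431, plus strand: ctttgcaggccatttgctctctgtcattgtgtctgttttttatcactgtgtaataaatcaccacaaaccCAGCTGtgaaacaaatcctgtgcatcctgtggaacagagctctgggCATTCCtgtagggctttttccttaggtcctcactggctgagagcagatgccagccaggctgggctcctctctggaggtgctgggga
TNNT2 −14.4 kb, chr1:201391972-201392172, minus strand: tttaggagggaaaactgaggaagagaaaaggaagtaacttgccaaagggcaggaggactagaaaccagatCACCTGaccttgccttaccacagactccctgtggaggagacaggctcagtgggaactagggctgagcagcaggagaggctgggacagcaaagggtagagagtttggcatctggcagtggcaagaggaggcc

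Last are bases before the start of TNNT2, whose 5′ end lay in an open region in every library, and of TNNI3 (cardiac troponin I), whose 5′ end did not. They are from the RefSeq promoter table (GRCh38.p14), which holds 3 of the 8 troponin genes, and the bases also match hg38. The TNNT2 stretch of 166 bases stops where an annotated transcript begins.
TNNT2 promoter, chr1:201377765-201377930, minus strand: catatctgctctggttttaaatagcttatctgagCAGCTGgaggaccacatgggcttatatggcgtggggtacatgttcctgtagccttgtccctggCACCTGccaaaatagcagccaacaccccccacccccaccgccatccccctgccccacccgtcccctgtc
TNNI3 promoter, chr19:55157733-55157982, minus strand: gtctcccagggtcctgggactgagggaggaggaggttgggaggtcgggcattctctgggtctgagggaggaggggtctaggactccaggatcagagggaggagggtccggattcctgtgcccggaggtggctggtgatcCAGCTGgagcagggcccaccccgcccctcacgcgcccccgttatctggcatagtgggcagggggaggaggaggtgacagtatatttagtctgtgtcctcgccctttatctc

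Before the troponin regions, the libraries were checked. The lists held 63140 to 80608 peaks each, and the smallest local background of a library, which follows its depth, was 3.41, 2.22 and 2.74 in vector replicates 1, 2 and 3 against 2.27, 2.28 and 2.35 in the MyoD-deleted replicates. Fold enrichment correlated across shared regions at a Spearman's rho of 0.901 to 0.936 for libraries of the same group and 0.797 to 0.857 for libraries of different groups, over regions that are not independent. At MYOD1, the targeted gene, the summit at the 5′ end was lower in MyoD-deleted libraries by 0.49 on the log2 scale when centred on the median region (adjusted p = 0.0021, limma) and by 0.29 without centring (adjusted p = 0.0932, limma). A second MYOD1 region (chr11:17713824-17714885) was lower by 0.55 centred (adjusted p = 0.0017, limma) and by 0.36 without centring (adjusted p = 0.0454, limma). By rank of fold enrichment neither MYOD1 region passed 0.05 (adjusted p = 0.408 and 0.612, limma). Reads can also be lost where the DNA was cut, which was not tested. Of 8 skeletal muscle lineage markers, 6 had a peak within 1 kb of the 5′ end in all 6 libraries, and MYMK and CKM had none. Of 7 cardiac markers, 3 were open in all 6 libraries (NKX2-5, NPPB and MYH7), and MYH6, TBX5 and GATA4 had no peak in any. None of the 2 hepatocyte, 2 epithelial and 2 endothelial markers was open in all 6 libraries, and APOA1, a hepatocyte gene, had a peak in 1 library.

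Most troponin 5′ ends, taken from the representative transcript of each gene, did not themselves lie in a peak. The 5′ ends of TNNT1 and TNNT2 were covered by a peak in 6 of 6 libraries. The 5′ ends of TNNT3, TNNI1, TNNI2, TNNI3, TNNC1 and TNNC2 were covered in 0 of 6 libraries, which says that no peak was listed there and not that the DNA was closed. The annotated span of TNNC2 starts further upstream, inside a merged region called in all 6 libraries at the 5′ end of SNX21. For TNNI1, TNNI2 and TNNI3 a region called in all 6 libraries reached within 1 kb. For TNNC2, the fast skeletal troponin C gene, the region at 0.7 kb inside intron 1 was called in 5 of 6 libraries, and for TNNC1, the troponin C gene of slow skeletal and cardiac muscle, the region at 1.1 kb inside intron 1 was called in 2 of 6, both vector libraries. TNNT3, the fast skeletal troponin T gene, had no region within 1 kb of its 5′ end, and its nearest was in intron 1 at 1.6 kb, called in 5 of 6 libraries.

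Of the 58 regions, 27 lay upstream, 20 downstream and 11 within the representative transcript. For 26 of them the nearest 5′ end of any protein-coding gene was that of a troponin gene, and the rest lay closer to a neighbor such as LAD1, SEMA3G, NISCH, MRPL23 or UBE2C. Vector replicates 1, 2 and 3 had 49, 44 and 47 open regions and MyoD-deleted replicates 1, 2 and 3 had 44, 48 and 51, so the groups overlapped. The means were 46.7 ± 2.52 and 47.7 ± 3.51 (SD, n = 3), and they did not differ beyond the spread (exact two-sided permutation test, p = 0.8). In this design of 3 libraries against 3 no exact p can fall below 0.1.

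**Figure D1:**
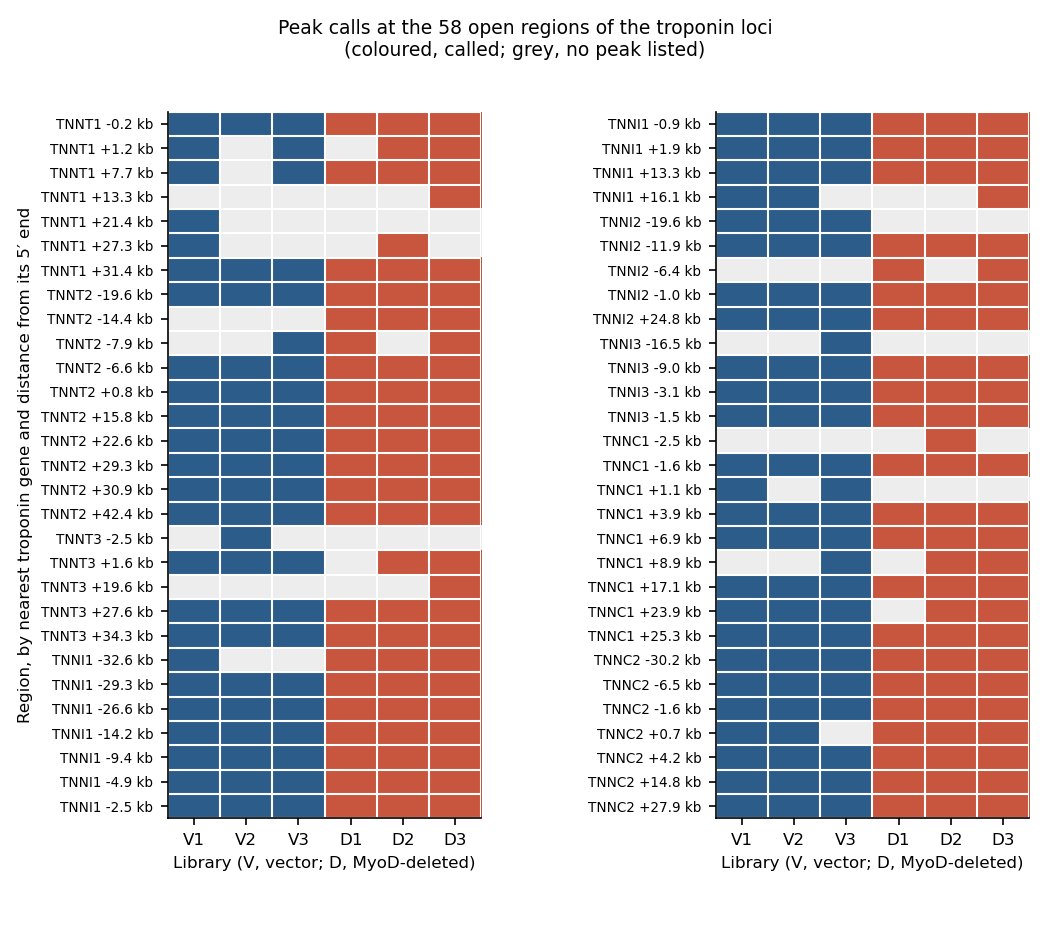
Peak calls at the 58 open regions of the troponin loci, with 1 row a region and 1 column a library (V1 to V3, vector; D1 to D3, MyoD-deleted), where blue and red squares mark a listed peak and grey squares none. A total of 38 rows are filled throughout, 1 row (TNNI2 −19.6 kb) is filled in the vector columns alone and 1 (TNNT2 −14.4 kb) in the MyoD-deleted columns alone.

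A region was counted as lost when called in 3 of 3 vector and 0 of 3 MyoD-deleted libraries, and as gained in the reverse case. Troponin loci held 1 lost region, and over all regions 1.78% were lost. They also held 1 gained region, against 4.56% gained over all regions, so neither count stood above the background. The lost region lay 19.6 kb upstream of TNNI2 (chr11:1818788-1819483), between genes and nearer to the 5′ end of SYT8. Its fold enrichment, the pileup at the summit over the local background within a library, was 6.80, 5.25 and 7.07 in vector replicates 1, 2 and 3. These values lay above the median of 3.55 of the troponin regions called in some libraries. They lay below the median of 7.79 of those called in all 6 libraries. The sequence of its summit, shown above, holds CAGCTG 28 bases from the summit and a CATTCC element. The gained region lay inside LAD1, 14.4 kb upstream of TNNT2 (chr1:201391822-201392181), and its fold enrichment was 2.63, 2.67 and 2.77 in the MyoD-deleted replicates. The remaining 18 regions were called in 1 to 5 libraries with fold enrichments of 2.18 to 10.5. Of them, 7 were called in more vector libraries, 9 in more MyoD-deleted libraries and 2 in as many of each.

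The height of each summit was compared next in the 38 regions called in all 6 libraries. Height is the pileup at the summit over the smallest background of the library, and it is given either as a multiple of the median shared region of that library or, for tests, as its log2, which is then 0 at the median region (centred height). At an adjusted p under 0.05 (limma, Benjamini-Hochberg over all 47885 regions), 12 troponin regions were lower in MyoD-deleted libraries and 1 was higher. This is 31.6% lower, where 12.8% of all regions were lower, and 2.63% higher, where 11.4% of all regions were higher. All 3 MyoD-deleted libraries lay below all 3 vector libraries in 15 of the 38 regions (39.5%), against 18.1% of all regions, and above them in 2 regions, against 19.8%. The median change over the 38 regions was −0.15 on the log2 scale, and over all shared regions it was 0.04. In libraries of many cells, fewer cells with an open region and less opening per cell cannot be told apart.

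Centring sets the median region of each library to the same level. Without it every log2 change is higher by 0.192, and this moves the split of calls. The troponin regions then had 9 lower and 4 higher, so that 30.8% of the calls were higher, against 7.69% with centring. Over all regions the higher share of calls was 75.5% without centring and 46.9% with it. The 9 lower regions were 23.7% of the 38, against a background of 8.03%, and the 4 higher were 10.5%, against a background of 24.7%. All 9 were among the 12 regions lower with centring.

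**Figure D2:**
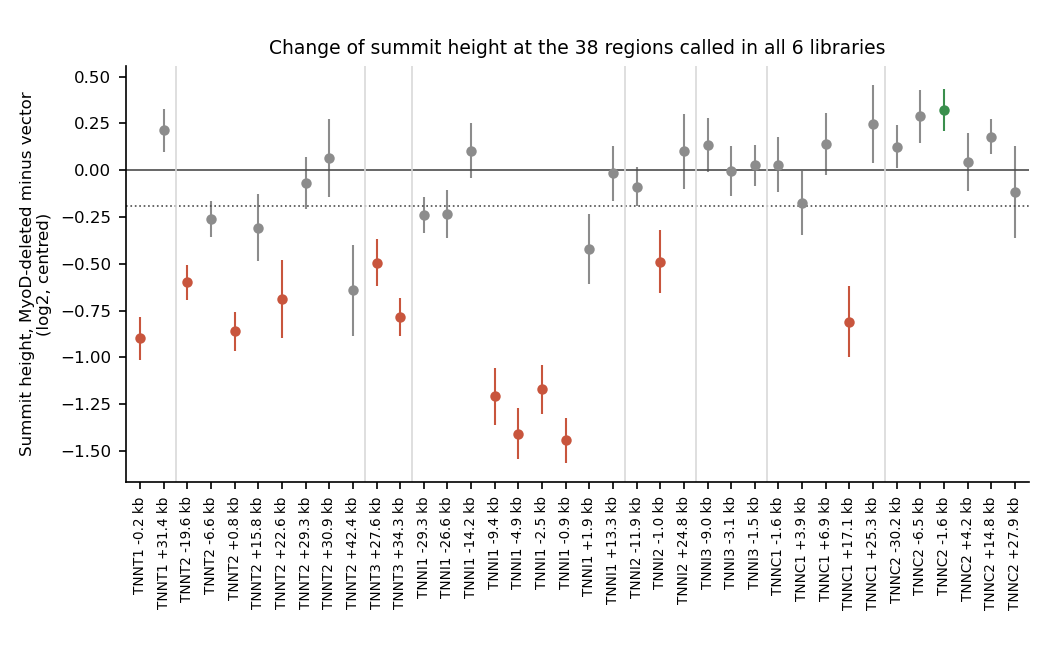
Change of centred log2 summit height, MyoD-deleted minus vector, with its standard error from limma (bars), for the 38 troponin regions called in all 6 libraries, ordered by gene and by distance from the 5′ end. Red points were lower and the green point higher at an adjusted p under 0.05, grey points were not called, and the dotted line is the level of no change without centring. The 4 TNNI1 regions between −0.9 and −9.4 kb lie lowest, between −1.17 and −1.44.

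TNNI1, the slow skeletal troponin I gene (ENSG00000159173.20, hg38, chromosome 1, 201403784 to 201429866, minus strand), had 15 regions in its window and 11 in all 6 libraries. Of these 11, 5 were lower by centred height, 1 of them inside LAD1 and shared with the TNNT2 window, and none was higher. A run of 4 neighboring regions, with summits 8427 bp apart at the most, lay from just upstream of the 5′ end of its representative transcript (201421730) outward. The first 3 of the 4 lie within the annotated gene span, because a longer transcript of TNNI1 starts further upstream, and the region at −9.4 kb lies beyond it.

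At TNNI1 −0.9 kb (chr1:201421878-201422953) the summit stood at 4.21, 3.77 and 3.86 times the median region in vector replicates 1, 2 and 3. In MyoD-deleted replicates it stood at 1.57, 1.26 and 1.54. Every MyoD-deleted library was thus far below every vector library. The means were 3.95 ± 0.233 and 1.46 ± 0.173 (SD, n = 3), and the log2 height fell by 1.44 (SE 0.12), which is 2.72-fold (adjusted p = 6.03e-07, limma). Without centring it fell by 1.25 (adjusted p = 1.1e-08, limma).

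TNNI1 −4.9 kb (chr1:201426343-201427013) went from 3.93, 3.30 and 3.77 times the median region in vector libraries to 1.57, 1.11 and 1.51 in MyoD-deleted libraries. The groups did not overlap, and the log2 height fell by 1.41 (SE 0.14, adjusted p = 2.01e-06, limma). TNNI1 −9.4 kb (chr1:201430239-201431604) stood at 3.67, 3.84 and 3.76 in vector libraries and at 1.84, 1.18 and 1.97 in MyoD-deleted libraries. MyoD-deleted replicate 2 was lowest here, as it was at the other regions of the run, and the groups again did not overlap. The log2 height of this region fell by 1.21 (SE 0.15, adjusted p = 2.23e-05, limma). TNNI1 −2.5 kb (chr1:201423988-201424631) stood at 2.53, 2.75 and 2.77 in vector libraries against 1.38, 1.05 and 1.18, and its log2 height fell by 1.17 (SE 0.13, adjusted p = 7.14e-06, limma). All 4 regions were lower under each of the 10 or 11 alternatives that gave a value for them, including no centring. The regions at −0.9 and −2.5 kb had no value in the setting of regions at least 50% covered by a peak.

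Other TNNI1 regions called in all 6 libraries were closer to their vector level. In intron 1 at 1.9 kb the log2 height changed by −0.42 (adjusted p = 0.118, limma), and in the last exon at 13.3 kb by −0.02 (adjusted p = 0.953, limma). The regions at −26.6 and −29.3 kb, which lie nearer to PHLDA3, changed by −0.23 and −0.24 with overlapping groups (adjusted p = 0.214 and 0.0781, limma).

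**Figure D3:**
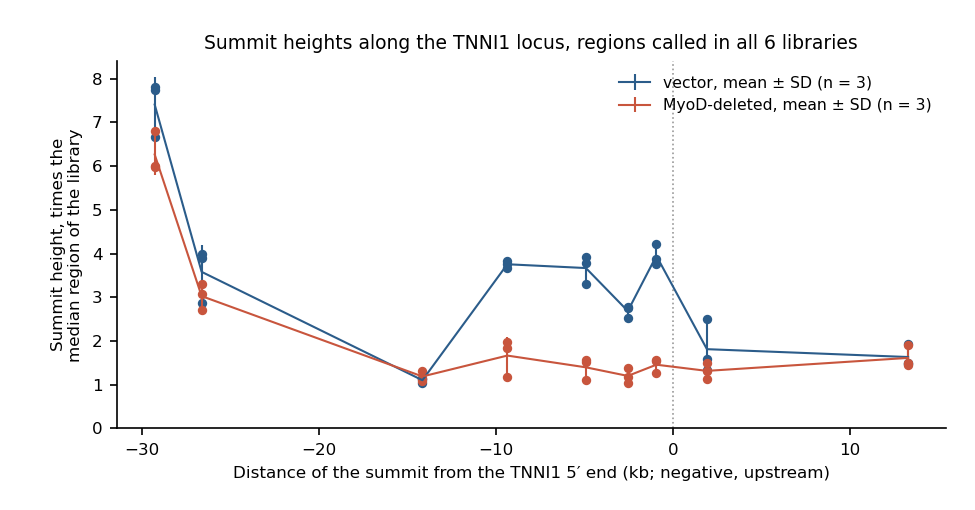
Summit height, as a multiple of the median region of the library, of the TNNI1 regions called in all 6 libraries, by distance of the summit from the TNNI1 5′ end in kb. Points are libraries, and lines join the group means with SD bars (n = 3), drawn between regions only to guide the eye. The vector libraries (blue) stand at 2.53 to 4.21 from −9.4 to −0.9 kb where the MyoD-deleted libraries (red) stand at 1.05 to 1.97, and the groups lie together at −14.2 and 13.3 kb.

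TNNI2, the fast skeletal troponin I gene (ENSG00000130598.17, chromosome 11, 1838981 to 1841680, plus strand), had 5 regions, of which 3 were called in all 6 libraries and 1 was the lost region described above. At TNNI2 −1.0 kb (chr11:1837424-1838478) the summit was at 0.864, 1.00 and 1.02 times the median region in vector libraries and at 0.621, 0.682 and 0.75 in MyoD-deleted libraries. The groups did not overlap, and the log2 height fell by 0.49 (SE 0.17, adjusted p = 0.0427, limma). This call was marginal, since it was lost without centring (adjusted p = 0.233, limma), with peaks of a −log10 q of at least 5 alone (adjusted p = 0.0549, limma) and without vector replicate 2 or 3 or any MyoD-deleted replicate (adjusted p = 0.052 to 0.152, limma). The regions at −11.9 and 24.8 kb changed by −0.09 and 0.10 with overlapping groups.

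TNNI3, the cardiac troponin I gene (ENSG00000129991.13, chromosome 19, 55151767 to 55157773, minus strand), had no lower region of its own. The region nearest to its 5′ end (chr19:55158683-55159656) lies inside the neighboring gene DNAAF3. It stood at 2.21, 2.43 and 2.5 times the median region in vector libraries and at 2.29, 2.45 and 2.51 in MyoD-deleted libraries. The groups overlapped, and the log2 height changed by 0.03 (SE 0.11, adjusted p = 0.903, limma). The groups also overlapped at −3.1 kb (adjusted p = 0.993, limma) and at −9.0 kb, by the 5′ end of DNAAF3, where the change was 0.13 (adjusted p = 0.557, limma). All 9 regions in the TNNI3 window, these 3 included, also lay in that of TNNT1, and the single lower region in its window was the TNNT1 5′ region, described next.

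TNNT1, the slow skeletal troponin T gene (ENSG00000105048.18, chromosome 19, 55132698 to 55149206, minus strand), had 11 regions in its window and 5 in all 6 libraries. Its 5′ region (chr19:55148991-55150047) stood at 2.75, 2.86 and 2.94 times the median region in vector libraries and at 1.62, 1.45 and 1.51 in MyoD-deleted libraries. The groups were well apart, and the log2 height fell by 0.90 (SE 0.11), which is 1.86-fold (adjusted p = 2.32e-05, limma). Without centring it fell by 0.71 (adjusted p = 0.000195, limma), and the call held under all 11 alternatives. Within the gene, regions in introns 1, 7 and 11 were called in 4, 5 and 1 of 6 libraries.

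TNNT2, the gene for cardiac troponin T, which is also made in developing skeletal muscle (ENSG00000118194.21, chromosome 1, 201359008 to 201377764, minus strand), had 10 regions and 8 in all 6 libraries. In 6 of the 8 all MyoD-deleted libraries lay below all vector libraries, and 3 of these passed the test, where over all regions 18.1% lay below and 12.8% were called lower. The region over its 5′ end and intron 1 (chr1:201376363-201378390) stood at 6.78, 6.80 and 5.95 times the median region in vector libraries and at 3.12, 3.86 and 3.81 in MyoD-deleted libraries. It was among the highest troponin summits in every vector library, and the log2 height fell by 0.86 (SE 0.11), which is 1.82-fold (adjusted p = 1.62e-05, limma). The call held under all 11 alternatives, with a fall of 0.67 without centring (adjusted p = 0.000263, limma).

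A region inside LAD1, between TNNT2 and TNNI1 and 2061 bp from the 5′ end of LAD1 (chr1:201395874-201397953), stood at 6.74, 6.93 and 7.17 in vector libraries and at 4.17, 4.92 and 4.69 in MyoD-deleted libraries. The groups did not overlap, and the log2 height fell by 0.60 (SE 0.09, adjusted p = 0.000159, limma), a call that held under all 11 alternatives. Downstream of TNNT2, a low summit at 22.6 kb from the 5′ end (chr1:201354744-201356138) stood at 0.840, 0.518 and 0.697 in vector libraries and at 0.431, 0.409 and 0.412 in MyoD-deleted libraries, a fall of 0.69 on the log2 scale (SE 0.21, adjusted p = 0.0225, limma). That call was lost without centring (adjusted p = 0.0773, limma) and without vector replicate 1 or 3 or any MyoD-deleted replicate (adjusted p = 0.0533 to 0.0786, limma). The region had no value with 50% cover, with a −log10 q of at least 5 or with equal numbers of peaks. The other 3 regions with groups apart changed by −0.64 at 42.4 kb, −0.31 in intron 14 and −0.26 at −6.6 kb (adjusted p = 0.0653, 0.24 and 0.0593, limma).

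TNNT3, the fast skeletal troponin T gene (ENSG00000130595.20, chromosome 11, 1919703 to 1938706, plus strand), had 5 regions, and the 2 called in all 6 libraries both lay downstream in MRPL23, a gene for a mitochondrial ribosomal protein. Both were lower. The region 43 bp from the MRPL23 5′ end (chr11:1946635-1948473) stood at 2.11, 2.25 and 1.97 in vector libraries and at 1.62, 1.38 and 1.5 in MyoD-deleted libraries, a fall of 0.49 on the log2 scale (SE 0.12, adjusted p = 0.0073, limma). That call was lost without centring (adjusted p = 0.113, limma) and fell to the threshold without vector replicate 2 (adjusted p = 0.05, limma). With 50% cover this region had no value. The region further inside MRPL23 (chr11:1953485-1954438) stood at 4.63, 4.57 and 4.39 against 2.62, 2.5 and 2.78, and its log2 height fell by 0.78 (SE 0.10, adjusted p = 2.21e-05, limma), with the call kept under all 11 alternatives. Inside TNNT3 itself no region was called in all 6 libraries. The intron 1 region had a fold enrichment of 3.89, 3.51 and 3.24 in vector libraries and of 4.12 and 3.55 in MyoD-deleted replicates 2 and 3, with no peak in replicate 1. Its summit window holds both CAGCTG and CAGGTG.

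**Figure D4:**
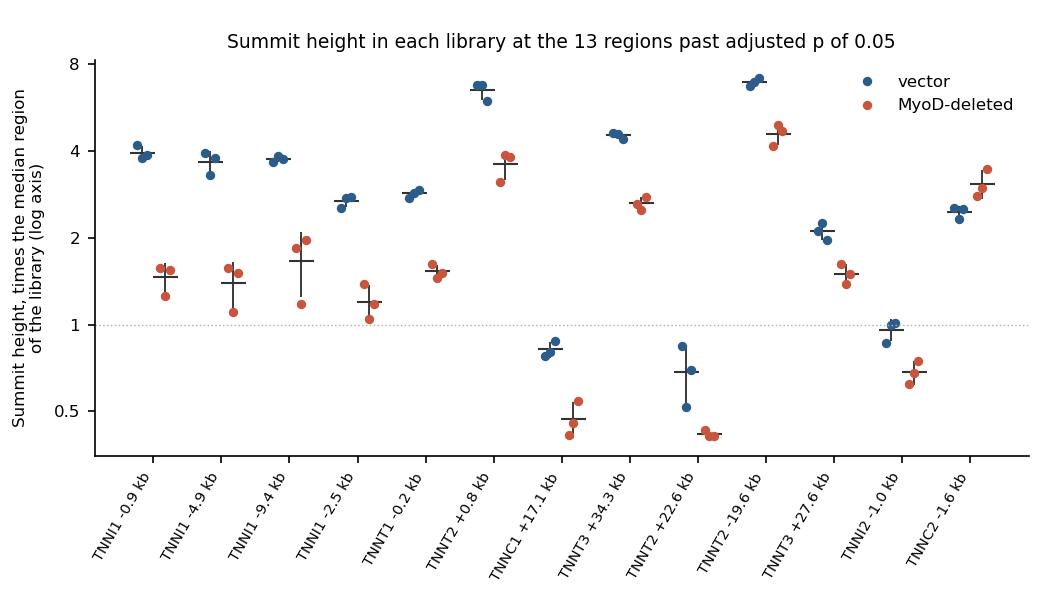
Summit height in each library, as a multiple of the median region of that library on a log axis, at the 13 troponin regions past an adjusted p of 0.05, ordered by their change. Points are libraries (blue, vector; red, MyoD-deleted), with the mean and SD of each group (n = 3) as dashes and bars. Vector points lie above MyoD-deleted points at 12 regions and below them at TNNC2 −1.6 kb.

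TNNC1, the troponin C gene of slow skeletal and cardiac muscle (ENSG00000114854.8, chromosome 3, 52451100 to 52454041, minus strand), had 9 regions and 5 in all 6 libraries. A single region passed, inside SEMA3G and 8165 bp from the 5′ end of that gene (chr3:52436549-52437267). It stood at 0.778, 0.804 and 0.879 in vector libraries and at 0.414, 0.455 and 0.544 in MyoD-deleted libraries, a fall of 0.81 on the log2 scale (SE 0.19, adjusted p = 0.00394, limma), and the call held under all 11 alternatives. The TNNC1 regions nearer to the gene overlapped between groups, with changes of −0.18 at 3.9 kb, 0.14 at 6.9 kb and 0.03 at −1.6 kb, where the region covers the 5′ end of NISCH.

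TNNC2, the fast skeletal troponin C gene (ENSG00000101470.10, chromosome 20, 45823214 to 45833745, minus strand), had 7 regions, 6 of them in all 6 libraries, and none was lower. The region at −1.6 kb (chr20:45828315-45829135), within the annotated gene span, was the only troponin region with a higher centred height at an adjusted p under 0.05. It stood at 2.54, 2.32 and 2.52 in vector libraries and at 2.79, 2.98 and 3.47 in MyoD-deleted libraries, without overlap. The log2 height rose by 0.32 (SE 0.11, adjusted p = 0.0471, limma), and without vector replicate 2 or 3 or MyoD-deleted replicate 2 or 3 the call was lost (adjusted p = 0.0677 to 0.224, limma). Without centring it rose by 0.51 (adjusted p = 0.0052, limma), together with the regions at the 5′ ends of SNX21 and UBE2C (0.48 and 0.37, adjusted p = 0.0146 and 0.0249, limma). The SNX21 region also covers the upstream end of the annotated TNNC2 span, at 45833745. The remaining region higher without centring lay at the 5′ end of PPP1R12C, downstream of TNNT1 (0.41, adjusted p = 0.026, limma). In intron 1, the mixed region at 0.7 kb had a fold enrichment of 2.32 and 2.41 in vector replicates 1 and 2 and none in replicate 3, against 2.96, 3.30 and 3.67 in MyoD-deleted libraries. Its summit window holds both a MEF2 site and CAGCTG.

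Grouped by the isoform of the nearest troponin 5′ end, 6 of 16 shared regions of the slow skeletal genes (TNNT1, TNNI1, TNNC1) were lower and none was higher. TNNC1, which also serves cardiac muscle, was counted with the slow skeletal genes alone. Of 11 shared regions of the fast skeletal genes (TNNT3, TNNI2, TNNC2), 3 were lower and 1 was higher, and of 11 of the cardiac genes (TNNT2, TNNI3), 3 were lower and none was higher. Over all regions 12.8% were lower and 11.4% higher, and differences between these isoform groups were not tested. Of the 12 lower regions, 8 had a troponin gene as their nearest gene by 5′ end, among 18 such regions of the 38.

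The fold enrichment in the deposited lists was compared by its rank within each library as well. By this measure 1 troponin region ranked higher, where 4.12% of all regions did, and none ranked lower at an adjusted p under 0.05 (limma), where 4.67% of all regions did. At an unadjusted p under 0.05, 5 of the 38 (13.2%) differed in either direction, fewer than the 25.2% of all regions that did. The region that ranked higher lay 14.2 kb upstream of TNNI1 (chr1:201435605-201436899). Its fold enrichment was 3.75, 3.57 and 3.05 in vector libraries and 6.87, 7.05 and 5.95 in MyoD-deleted libraries, and the groups did not overlap. By rank it went from percentiles of 4.12, 2.95 and 1.38 in vector libraries to 27.9, 24.7 and 14.5 in MyoD-deleted libraries (adjusted p = 0.0124, limma), a call that was lost without vector replicate 3 (adjusted p = 0.0516, limma). The summit itself was at 1.14, 1.13 and 1.05 times the median region in vector libraries and at 1.31, 1.09 and 1.16 in MyoD-deleted libraries, so its height overlapped (log2 change 0.10, adjusted p = 0.664, limma).

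Rank and height differ in what they are divided by. Fold enrichment is taken over the local background, which the peak caller estimates from the reads around the peak, so a wide domain of open chromatin raises it. At TNNI1 −14.2 kb the local background was 6.99, 7.61 and 8.03 times the smallest background of the library in vector libraries and 4.50, 4.11 and 5.31 in MyoD-deleted libraries. At TNNI1 −4.9 kb it was 26.2, 25.2 and 26.9 against 11.5, 9.87 and 13.7. The local background at this site was thus lower in every MyoD-deleted library, and the log2 change was −1.17. Across the 12 regions with lower summits the local background changed by a median of −0.61 on the log2 scale without centring (range −1.17 to −0.22), and in 11 of them all MyoD-deleted libraries lay below all vector libraries. The other 26 shared troponin regions had a median of −0.04, with 6 of them below in this way, and all shared regions had a median of 0.04, with 15.8% below. Height and local background are divided by the same smallest background, and both come from reads at or around the peak. The 12 regions were chosen by their height, so their lower local background is not a separate result. Neighboring regions, as at TNNI1, can also share the reads of their local background. The part of the local background, or of depth, in the changes of height was not tested. When peaks were ranked by their −log10 p in place of fold enrichment, 11 troponin regions ranked lower, where 10.9% of all regions did, and 1 ranked higher, where 9.03% did. Of these 11, 10 were among the 12 with lower summits. The pileup used for height was itself solved from the fold enrichment and the −log10 p, so this overlap is not separate support.

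**Figure D5:**
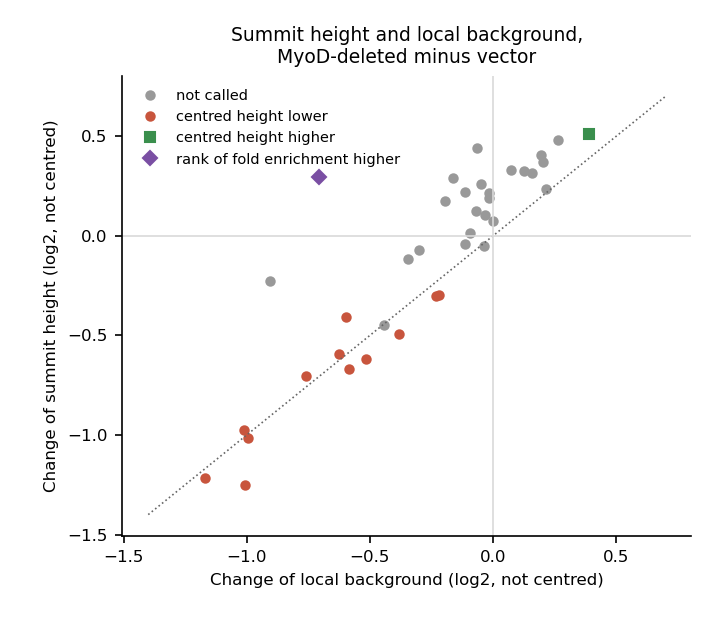
Change of summit height against change of local background, MyoD-deleted minus vector, both log2 and not centred, for the 38 troponin regions called in all 6 libraries. Red points had lower centred height, the green square higher centred height and the purple diamond (TNNI1 −14.2 kb) a higher rank of fold enrichment, and on the dotted line both changes are equal, so that fold enrichment stays about the same. The red points run along the line from −0.22 to −1.17 in background, and the diamond lies above it.

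For each gene, the median rank of fold enrichment over its regions in all 6 libraries was also taken per library. By this measure, in the 25 kb window, the largest shift was at TNNT3, from 75.8, 82.4 and 75.5 percentiles in vector libraries to 67.1, 62.4 and 71.0 in MyoD-deleted libraries. It rests on 2 regions, both inside the neighboring gene MRPL23, as no region inside TNNT3 was called in all 6 libraries. The groups did not overlap, and the shift was −11.1 percentile points (exact two-sided permutation test, p = 0.1, the smallest possible). The shifts of TNNT1, TNNT2, TNNI3 and TNNC2 were −6.40, −4.13, −2.21 and −2.40 points, those of TNNI2 and TNNC1 were 5.89 and 5.01, and that of TNNI1 was −0.05, with exact permutation p of 0.2 to 1.0. By rank of −log10 p the order was another, with shifts of −15.1 at TNNI1, −13.7 at TNNC1 and −10.7 at TNNT3 (exact two-sided permutation test, p = 0.1 each). By median centred height, TNNI1 stood at 1.87, 1.91 and 1.92 on the log2 scale in vector libraries and at 0.88, 0.33 and 0.63 in MyoD-deleted libraries, a shift of −1.29 (exact two-sided permutation test, p = 0.1). TNNT3 shifted by −0.64 and TNNC2 by 0.30, each without overlap (p = 0.1 for both from the same exact test), and the other 5 genes had p of 0.2 to 0.8. Ordered by their median centred height in vector libraries, TNNI1 (1.90 ± 0.02) and TNNT3 (1.63 ± 0.06, from its 2 regions in MRPL23) stood highest. TNNC2, TNNT1 and TNNI3 (1.3 ± 0.17, 1.28 ± 0.12 and 1.22 ± 0.19; SD, n = 3) lay within their spread of each other. All 4 TNNI3 regions in these medians are among the 5 of TNNT1, so the values of TNNT1 and TNNI3 are not independent. TNNI1 and TNNT2 also have regions in common. TNNT2 (0.19 ± 0.11) was lower, and TNNI2 and TNNC1 (−0.06 ± 0.13 and −0.19 ± 0.03) were lowest. In MyoD-deleted libraries the order was TNNC2 (1.60 ± 0.14), TNNT1 (1.25 ± 0.07), TNNI3 (1.15 ± 0.10), TNNT3 (0.99 ± 0.08), TNNI1 (0.61 ± 0.28), TNNT2 (0.01 ± 0.11), TNNC1 (−0.13 ± 0.15) and TNNI2 (−0.30 ± 0.28).

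Motifs were searched on both strands within 100 bp of each top summit, and the counts describe the regions without a test. CAGCTG, an E box of the kind MyoD binds, lay in 24 of 58 troponin regions (41.4%) and in 25.1% of all regions. A further E box, CAGGTG, which reads CACCTG on the other strand, lay in 15 regions (25.9%, against 15.9%). E boxes of any form (CANNTG), which include both of these, lay in 48 (82.8%, against 71.4%). The MEF2 site, bound by a partner family of the myogenic factors, lay in 2 (3.45%, against 0.607%), both at TNNC2. M-CAT elements (CATTCC), bound by TEAD factors, lay in 12 (20.7%, against 17.3%), and AP-1 sites (TGACTCA or TGAGTCA) in 6 (10.3%, against 17.9%). The CArG box of serum response factor and the MEF3 element TCAGGTTTC lay in none, and in 1.09% and 0.426% of all regions.

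Lower regions did not hold CAGCTG more often than the rest by count, with 5 of the 12 lower regions and 12 of the other 26 shared regions. CAGGTG lay in 4 of 12 and 5 of 26, and E boxes of any form in 11 of 12 and 21 of 26. Of all shared regions, 27.8% held CAGCTG, 15.3% CAGGTG and 68.9% an E box of any form. These differences were not tested. Among the 4 TNNI1 regions printed above, CAGCTG lay in those at −2.5 and −9.4 kb, CAGGTG in those at −0.9, −2.5 and −9.4 kb, and neither in that at −4.9 kb, which holds 2 E boxes of other forms. The TNNT2 5′ region holds CAGCTG 40 bases from its summit, and the TNNT1 5′ window holds a single E box, of another form. In the RefSeq promoter table, which spans 250 bases before and 50 after the start, CAGCTG lay in the TNNI3 and TNNT2 promoters and in 17.9% of all promoters, CAGGTG in TNNT2 alone and in 20.6%, and CATTCC in TNNT2 alone and in 14.0%. GC content at the summit had a median of 61.2% in the 12 lower regions, 59.5% in the other 26 and 54.2% in all shared regions.

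For comparison, the genes of the other thin filament proteins were taken by the same rule (TPM1, TPM2, TPM3, ACTA1, ACTC1, NEB, TMOD1, TMOD4, LMOD2 and LMOD3). They had 70 regions and 35 in all 6 libraries, of which 8 were lower and 3 higher by centred height (22.9% and 8.57%), against 12.8% and 11.4% of all regions and 12 and 1 of 38 at the troponin genes. The difference between the partner and troponin genes was not tested. Without centring, 5 were lower and 6 higher, where 8.03% and 24.7% of all regions were. By rank of fold enrichment 3 of the 35 were lower and none higher (4.67% and 4.12% of all regions). Of the 70 regions, 3 were lost and 5 gained (1.78% and 4.56% of all regions).

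Genes whose own 5′ region had the most similar ranks of fold enrichment in the 6 libraries were listed from 12401 genes by Euclidean distance, as a description. For TNNI1 these were HDDC3, EHMT2 and TNFRSF12A (2.61 to 3.72 percentile points), for TNNT1 LSM10, TCEAL1 and SETD1A (5.04 to 6.91), and for TNNI3 ARHGEF40, ADGRG1 and PITPNC1 (4.61 to 5.32). For TNNI2 they were SH2D3C, CBLN2 and SFRP4 (8.87 to 11.7), and for TNNT2 H2BC12 and H2AC12, which share a region, and L3MBTL3 (12.6 to 13.3).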

How the data were processed

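The data are ATAC-seq peak lists of RH30 cells, from 3 vector and 3 MyoD-deleted libraries. By the study's methods, the authors mapped read pairs to hg38 using Rsubread, retained properly paired reads and called peaks by MACS2. A peak list was deposited for each library, with its own fold enrichments. The submitters' processing notes also name bcl2fastq 2.20 and FastQC. In the deposited lists the score is a whole number that follows the −log10 q. Fold enrichment, as deposited, is a ratio of summit pileup to local background inside 1 library, with no scaling across libraries. Each summit's −log10 p and −log10 q, and its offset from the peak's start, were deposited as well. DESeq2 was run by the authors on read counts and not here.

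From these values, a whole-number pileup and a background were solved for each peak so that its fold enrichment and, under a Poisson model, its −log10 p were both met (100% of peaks, relative tolerance 0.0001). The lists hold no read totals, so depth is unknown and no counting interval is given. Pileups of troponin regions called in all 6 libraries ranged from 13 to 549. Peaks on chromosomes 1 to 22, X and Y that overlapped or touched were merged, without the mitochondrial peak (1 in each list). Ranks (inverse-normal) and log2 heights were fitted with limma 3.58.1 (lmFit, eBayes with trend) in R 4.3.3, two-sided, without a block, over 47885 regions. Per-gene medians and numbers of open regions used exact two-sided permutation tests over 20 assignments. Genes and 5′ ends (Ensembl canonical transcript) were from GENCODE version 44, and positions count from 1. Every troponin region past an adjusted p of 0.05, lost, gained or within 1 kb of a 5′ end was named. The members and lists were chosen with earlier results of these data known. Alternatives were a stricter q (−log10 q from 5 upward), the same number of peaks in each library (63140), regions at least 50% covered by a peak, a window of the body and 5 kb upstream, ranks of −log10 p, regions in at least 2 libraries, no centring, medians of height, a replicate block, and each library left out. A further list of cell type markers is not reported here. Steps were tested on simulated data. Python 3.11.15, numpy 2.4.6, pandas 2.3.3, scipy 1.17.1, pysam 0.24.0, samtools 1.23.1 and matplotlib 3.10.9 were used.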

Additional observations from a re-analysis of the deposited data

How the results depend on the processing

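The count of troponin regions with lower summits, 12, became 7 to 11 under the other alternatives that changed it and 10 to 15 with 1 library left out (15 without vector replicate 1). The lowest count, 7, came with the window of the gene body and 5 kb upstream, which holds fewer regions. The count of higher summits was 4 without centring, 0 with the replicate block and 0 to 1 with 1 library left out. With the replicate block the lower summits numbered 12, the regions ranked higher 1 and those ranked lower 0, and the calls at TNNI2 −1.0 kb and TNNC2 −1.6 kb were lost (adjusted p = 0.0618 and 0.0593, limma). The deviations of same-numbered libraries correlated at −0.041, −0.098 and 0.041 by rank and at −0.040, −0.203 and 0.092 by height. Those of differently numbered libraries ran from −0.121 to 0.158 by rank and from −0.232 to 0.260 by height. Same-numbered libraries were thus no closer than others, and whether the experiment paired them is not known.

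The count ranked higher was 0 with regions in at least 2 libraries, with peaks covering at least 50% of a region and with the smaller window, and 0 to 2 with 1 library left out. The count ranked lower was 11 by −log10 p, and 1 each with regions in at least 2 libraries and with equal numbers of peaks. Lost regions numbered 2 with 50% cover, 4 with equal numbers of peaks, 0 in the smaller window and 1 to 2 with 1 library left out (2 without vector replicate 2). Gained regions numbered 0 with equal numbers and in the smaller window, and 1 to 2 with 1 library left out (2 without vector replicate 1 or MyoD-deleted replicate 2). Except without centring and by −log10 p, no shares over all regions are given for the alternatives. The other counts are thus not set against a background. The difference in open regions per library was −3.33 with equal numbers of peaks and −0.667 to 2.83 with 1 library left out.

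Median rank shifts changed sign under some alternatives, except those of TNNT2 and TNNT3, which stayed negative wherever they had a value. By −log10 p those of TNNC1, TNNC2 and TNNI2 were −13.7, 5.98 and −1.72 percentile points, and that of TNNI1 was −15.1, against −0.05. In the smaller window those of TNNC2, TNNI2 and TNNI3 were 2.13, −13.0 and 3.29. By median centred height those of TNNC2 and TNNI2 were 0.298 and −0.232 on the log2 scale. That of TNNI1 was 0.943 with 50% cover and 0.197 with a −log10 q of at least 5. With 1 library left out the ranges were −7.00 to 0.981 for TNNC2, −2.67 to 1.47 for TNNI1, −3.53 to 4.73 for TNNI3 and −8.20 to 2.37 for TNNT1, and the height change at TNNI3 −1.5 kb ran from −0.0264 (without vector replicate 1) to 0.065. The cause of these changes was not tested. TNNT3 had no region in the smaller window in all 6 libraries. The lists give no read totals, small changes in low peaks were not weighed against counting error, and a region without a listed peak has no measured value.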
